A study of Mus musculus with 18 samples.

Results

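Fut9, Sycp1, Amy1, Nbeal1, Cdh19, Slf1, Taf15 and Eea1 are 8 genes that were picked because their values were low in the cerebellum of wild-type littermates of Ctm knockout mice, compared with the knockouts. They were selected on their log2 expression values in the 6 Ctm arrays. They were represented by 15 probe sets, of 34945 probe sets with exactly 1 gene symbol for 18193 genes. One more probe set, which lists Amy1 together with another gene, was left out. Since the Ctm arrays chose these genes, their values there are given as a description and without a test. Test results for these genes are given only in the 2 knock-in lines, whose 12 arrays the choice did not use. In the Ctm line, test results are given only for other genes and for array measures. The Ctm fit covered all probe sets, these 15 included, so they count in its shares and its adjustment.

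The mice belong to a study of spinocerebellar ataxia type 6, an inherited loss of coordination caused by a longer polyglutamine (Q) tract in Cav2.1, the pore subunit of P/Q-type calcium channels. Cerebellar total RNA of C57BL/6 mice was measured on Affymetrix arrays in 6 groups of 3 arrays. The groups were Sca6 CtmKO/CtmKO mice and their wild-type littermates, MPI 118Q/118Q knock-in mice and their wild-type littermates, and MPI 11Q/11Q knock-in mice and their wild-type littermates. They are called Ctm, 118Q and 11Q below. The mutant alleles are homozygous, and 118Q and 11Q give the number of glutamines in the knock-in tract. The 118Q knock-in and Ctm knockout mice were 6 weeks old. The labels used here give no age for the other groups, Ctm wild types included. The labels do not say whether an array holds 1 animal or several, so p-values measure only the spread between these samples.

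The 8 genes share no pathway. FUT9 adds fucose in the last step of making the Lewis x sugar, a carbohydrate found on neural cells. CDH19 is a type II cadherin, a calcium-dependent adhesion protein best known from cells of the peripheral nerve lineage. SYCP1 forms the transverse filaments that hold paired chromosomes together in meiosis, and SLF1 helps to bring the SMC5/6 complex to damaged DNA. TAF15 is an RNA-binding protein of the nucleus, EEA1 tethers early endosomes through RAB5, and NBEAL1 is a large BEACH domain protein related to neurobeachin. Amy1 encodes the amylase of salivary gland and liver, a secreted enzyme that digests starch.

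The genes lie on chromosomes 4 (Fut9), 1 (Cdh19 and Nbeal1), 3 (Sycp1 and Amy1), 13 (Slf1), 11 (Taf15) and 10 (Eea1). A RefSeq promoter table of build GRCm38.p6 held 7 starts of 6 of them. Fut9 and Cdh19 had no entry. The 250 bases before each start were searched on both strands for the GC box GGGCGG, the CCAAT box, the TATA box TATAAA, the E-box CACGTG and the E2F-like motif TTCCCGC. None of these motifs overlaps another in the 7 windows. The promoters of 4 genes are printed, because their motifs differ; capitals mark a motif on either strand, and each is written in the direction of its gene. They are Sycp1 at chr3:102936101-102936350 (minus strand), Slf1 at chr13:77135469-77135718 (minus strand), Taf15 at chr11:83472858-83473107 (plus strand) and the second Amy1 start at chr3:113574763-113575012 (minus strand).
Sycp1: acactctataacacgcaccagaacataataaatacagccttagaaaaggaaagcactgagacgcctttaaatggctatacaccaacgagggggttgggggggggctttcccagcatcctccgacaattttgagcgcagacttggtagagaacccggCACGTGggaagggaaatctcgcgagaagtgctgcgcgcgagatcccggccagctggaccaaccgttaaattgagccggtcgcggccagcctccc
Slf1: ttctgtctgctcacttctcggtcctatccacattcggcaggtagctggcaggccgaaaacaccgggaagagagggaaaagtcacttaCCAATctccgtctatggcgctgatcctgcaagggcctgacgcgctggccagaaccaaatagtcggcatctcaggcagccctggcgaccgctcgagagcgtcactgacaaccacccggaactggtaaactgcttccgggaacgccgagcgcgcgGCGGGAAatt
Taf15: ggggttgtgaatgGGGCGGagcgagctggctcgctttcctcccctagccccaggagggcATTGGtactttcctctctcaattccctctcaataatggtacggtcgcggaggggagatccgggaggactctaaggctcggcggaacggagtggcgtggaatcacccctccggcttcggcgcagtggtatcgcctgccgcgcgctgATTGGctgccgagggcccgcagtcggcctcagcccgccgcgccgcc
Amy1: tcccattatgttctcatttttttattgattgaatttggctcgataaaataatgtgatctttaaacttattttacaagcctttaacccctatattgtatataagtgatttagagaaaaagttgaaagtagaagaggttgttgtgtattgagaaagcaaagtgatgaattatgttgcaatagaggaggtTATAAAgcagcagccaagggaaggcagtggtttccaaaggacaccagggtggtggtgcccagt

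No motif was found in all 7 windows. The GC box was in 3 of the 7 (Nbeal1, Eea1 and Taf15), against 32.7% of 32851 promoters. CCAAT was also in 3 (Eea1, Taf15 and Slf1), against 33.8%. Each of the rarer motifs was in 1 window. TATAAA was in the Amy1 window printed above, against 12.4% of promoters. CACGTG was in that of Sycp1, against 6.0%. TTCCCGC was in that of Slf1, against 3.8%. The share of G and C ran from 36.0% in the printed Amy1 window and 42.4% in the other Amy1 window to 73.2% in Nbeal1, and the median of all promoters was 52.4%. A match is a description of the letters in the window.

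The arrays of the Ctm line stood apart from the other 12. The mean of the 18S ribosomal RNA controls was 5.71 to 6.54 in Ctm knockouts and 5.27 to 5.95 in Ctm wild types, against 8.54 to 10.57 on the other 12 arrays. The poly-A spikes, bacterial RNAs that are added before labelling, averaged 1.82 to 1.92 in Ctm knockouts and 2.00 to 2.21 in Ctm wild types, against 2.14 to 4.20 on the other 12. Line and array processing therefore cannot be told apart when the Ctm line is set beside the knock-in lines. The spikes also had no overlap between Ctm knockouts and Ctm wild types. The part of array processing in that contrast was not tested. The 3 prime minus 5 prime difference of the control genes, a measure of RNA quality, was 0.62 ± 0.08 in the knockouts of this line and 0.61 ± 0.06 in its wild types (SD, n = 3 each). Correlations between pairs of arrays lay between 0.977 and 0.995. The 10 markers of cerebellar neurons averaged 10.26 to 10.32 in Ctm knockouts, 10.17 to 10.31 in Ctm wild types and 9.72 to 10.16 on the other 12 arrays, as fits the labelled tissue.

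In the Ctm line, 12 of the 15 probe sets had all 3 wild types below all 3 knockouts. This holds for 7.01% of all probe sets, and since the rule used these arrays the count only restates the choice. The brightest probe set of each gene differed by 0.81 to 2.40 log2 units (knockout minus wild type), with a median of 1.46; 1 log2 unit is a factor of 2. In whole tissue, fewer cells of a type and less RNA per cell cannot be told apart. Values below are RMA values on the log2 scale. They are given for Ctm knockouts 1, 2 and 3, then for Ctm wild types 1, 2 and 3, and then as the lowest, median and highest of the 12 arrays of the knock-in lines.

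**Figure D1:**
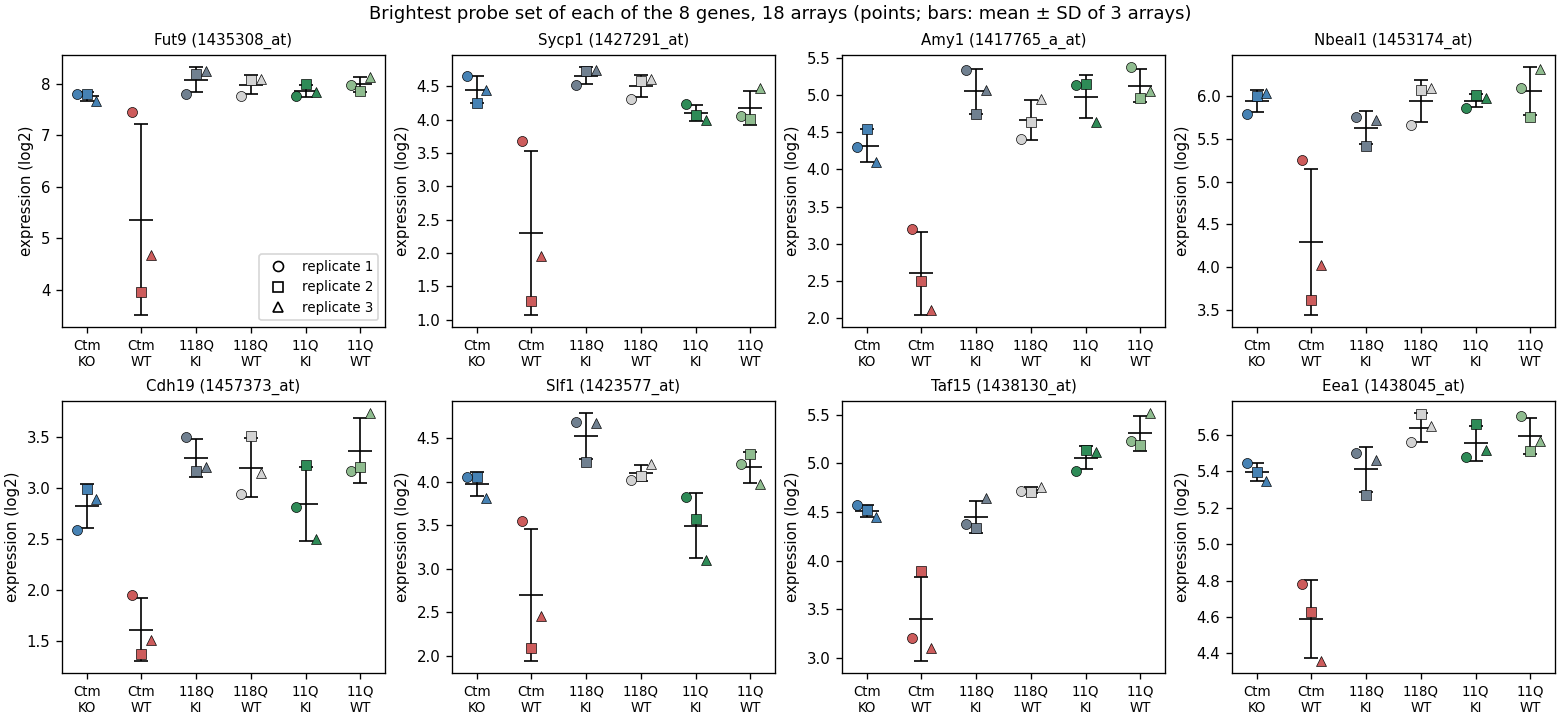
Log2 expression of the brightest probe set of each of the 8 genes on every array, with 1 panel per gene and 1 point per array; the horizontal axis gives the group, with KO for knockout, KI for knock-in and WT for wild type, and bars are the mean ± SD of 3 arrays. In Fut9, Ctm wild types 2 and 3 lie at 3.95 and 4.67, and every other array lies at 7.46 or above.

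Fut9 had the largest difference of the 8 genes. Its brightest probe set, 1435308_at, had values of 7.81, 7.80 and 7.66 in Ctm knockouts and 7.46, 3.95 and 4.67 in Ctm wild types. The other 12 arrays ran from 7.77 through a median of 7.98 to 8.25. The knockout mean was 5.26-fold the wild-type mean, but wild type 1 was only 0.30 below the knockout mean, and the low values were those of wild types 2 and 3.
In the other probe sets of Fut9 wild types 2 and 3 were again the lowest of the Ctm arrays. Probe set 1457409_at had 6.92, 6.87 and 6.63 in knockouts and 6.79, 3.46 and 3.80 in wild types, against 5.28, 6.20 and 6.60 as the lowest, median and highest of the other 12. Probe set 1450771_at had 5.84, 5.59 and 5.65 in knockouts and 5.23, 2.94 and 3.43 in wild types, against 3.46, 4.21 and 4.58. In both, the 3 knockouts and wild type 1 lay above all 12 arrays of the knock-in lines, while wild types 2 and 3 lay below them. In 1457409_at, wild type 1 also lay within the range of the knockouts.

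Cdh19, the type II cadherin gene, had 1 probe set (1457373_at). It read 2.58, 2.99 and 2.89 in Ctm knockouts and 1.95, 1.37 and 1.51 in Ctm wild types, against 2.50, 3.19 and 3.73 on the other 12 arrays. All 3 wild types were below the other 15 arrays, and the knockouts were 2.32-fold higher than the wild types. On the Ctm arrays these values are at about the median of all probe sets, which lay between 2.89 and 3.08 on the 18 arrays, or below it. Of the peripheral glia markers, 5 of 7 were measured and 4 of those were below every array's median; their mean was 1.03 to 1.17 in knockouts, 1.12 to 1.22 in wild types and 0.95 to 1.36 on the other 12. Oligodendrocyte lineage markers (10 measured) averaged 7.00 to 7.18 in knockouts and 7.16 to 7.21 in wild types. Neither list had a lower mean in the Ctm wild types.

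Sycp1, the synaptonemal complex gene, had values of 4.66, 4.24 and 4.45 in Ctm knockouts and 3.67, 1.28 and 1.95 in Ctm wild types (1427291_at). The other 12 arrays ran from 4.00 through 4.40 to 4.74. The knockouts lay inside that range and all 3 wild types below it, with a fold of 4.43 between the Ctm groups. Male germ cell markers were near the bottom of the scale on every array: 9 of 10 were below every array's median, and Prm1 was the exception. Their mean was 0.87 to 0.95 in knockouts, 0.96 to 1.01 in wild types and 0.89 to 1.03 on the other 12 arrays.

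Slf1, the DNA repair gene, had 2 probe sets. For 1423577_at the values were 4.05, 4.05 and 3.81 in Ctm knockouts and 3.55, 2.10 and 2.46 in Ctm wild types, against 3.10, 4.14 and 4.68 on the other 12. For 1430047_at they were 3.58, 3.58 and 3.63 in knockouts and 3.17, 2.43 and 2.30 in wild types, against 1.28, 2.81 and 3.82. Slf1 was thus the only one of the 8 genes whose brightest probe set did not have all 3 Ctm wild types below the other 15 arrays, because wild type 1 lay above 1 array of the other lines, 11Q knock-in 3 (3.10). In 1430047_at all 3 Ctm wild types lay inside the range of the other 12.

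Taf15, the RNA-binding protein gene, departed from the usual order of the wild types. Its brighter probe set, 1438130_at, had 4.57, 4.52 and 4.45 in Ctm knockouts and 3.21, 3.89 and 3.10 in Ctm wild types, against 4.34, 4.84 and 5.52 on the other 12. Here wild type 2 was the highest of the wild types, and all 3 lay below the other 15 arrays. The dim probe set 1453504_at had 0.81, 1.10 and 0.97 in knockouts and 1.35, 0.71 and 0.86 in wild types, a difference of -0.01. It showed no separation of the Ctm groups.

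Eea1 and Nbeal1 both relate to membrane traffic. Eea1 (1438045_at) had 5.45, 5.40 and 5.35 in Ctm knockouts and 4.78, 4.63 and 4.36 in Ctm wild types, against 5.27, 5.54 and 5.72 on the other 12. Its difference of 0.81 (1.75-fold) was the smallest among the brightest probe sets of the 8 genes, yet all 3 wild types were below the other 15 arrays.
Nbeal1 had 4 probe sets, of which 1453174_at and 1429505_at come from the same source clone. Probe set 1453174_at had 5.79, 6.01 and 6.04 in Ctm knockouts and 5.25, 3.61 and 4.02 in Ctm wild types, against 5.42, 5.92 and 6.32. Probe set 1429505_at had 5.83, 5.76 and 5.64 in knockouts and 5.19, 3.27 and 3.59 in wild types, against 5.61, 5.70 and 5.97. In both, the knockouts fell inside the range of the other 12 and all 3 wild types below it. Probe set 1442027_at had 5.69, 5.50 and 5.53 in knockouts and 5.11, 3.75 and 3.60 in wild types, against 4.73, 4.95 and 5.44, so its knockouts were above all 12. The dimmest, 1441444_at, had 2.77, 3.12 and 3.06 in knockouts and 2.66, 3.04 and 1.96 in wild types, and these groups overlapped.

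Amy1 (1417765_a_at) had 4.30, 4.54 and 4.10 in Ctm knockouts and 3.20, 2.50 and 2.11 in Ctm wild types, a fold of 3.28. The other 12 arrays ran from 4.40 through 5.00 to 5.37. All 3 wild types were below the other 15 arrays, and 2 of the 3 knockouts were below the 12 arrays of the knock-in lines. The wild types kept a wide gap to the knockouts, with 0.90 between the lowest knockout and the highest wild type. Of 9 measured exocrine pancreas markers, 6 were below every array's median, and their mean was 1.80 to 1.96 in knockouts and 1.81 to 1.93 in wild types.

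Across the 15 probe sets, all 3 Ctm wild types were below all 15 other arrays in 8, against 1.94% of all probe sets; these arrays include those the rule used. The knockouts were all within the range of the 12 arrays of the knock-in lines in 9 probe sets, all above it in 3 and all below it in 0. For all probe sets the shares above and below were 4.02% and 5.15%. The share of all probe sets with all 3 knockouts within the range was not counted, so the 9 cannot be set against it. The 3 above were Fut9 1457409_at and 1450771_at and Nbeal1 1442027_at.

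**Figure D2:**
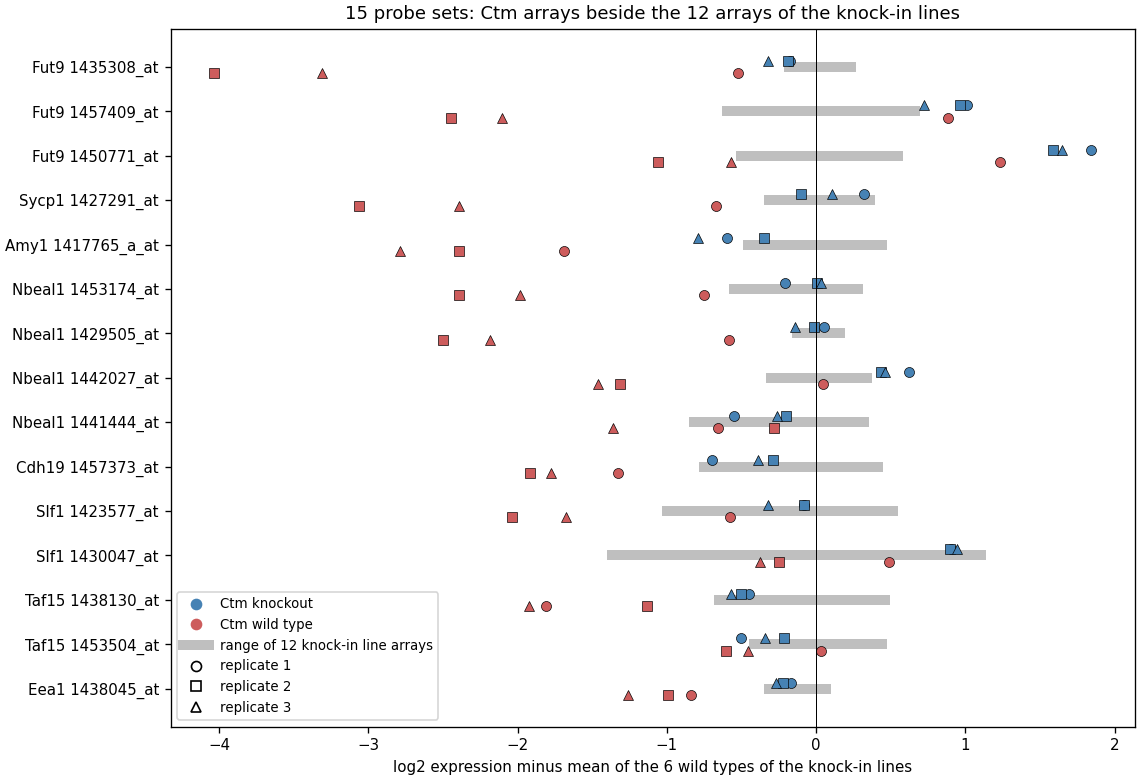
Log2 value of each Ctm array minus the mean of the 6 wild-type arrays of the knock-in lines, for each of the 15 probe sets; grey bars span the 12 arrays of the knock-in lines. In Fut9 1435308_at the knockouts lie at -0.17, -0.19 and -0.32, and the wild types at -0.53, -4.03 and -3.31.

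The 3 Ctm wild types were unlike each other. Wild type 1 was the highest of them in 13 of the 15 probe sets and the lowest in 0. Wild type 2 was the lowest in 9 and wild type 3 in 6. The distance of wild type 1 below the knockout mean, as a share of the largest such distance among the 3 wild types, was 0.6% to 16.8% in the Fut9 probe sets and 22.3% to 33.0% in those of Sycp1, Nbeal1 and Slf1. It was 50.4% in Amy1, 59.2% in Eea1, 59.7% in Cdh19 and 92.3% in Taf15 1438130_at. So the low values of Fut9 came mainly from 2 arrays, and those of Taf15, Cdh19, Eea1 and Amy1 from all 3. The same order was common beyond the 8 genes: of the 172 probe sets with no overlap and knockouts higher by at least 1 log2 unit (0.492% of all), wild type 1 was the highest wild type in 91.9%. Without wild type 1 the knockout minus wild type difference of Fut9 was 3.44 instead of 2.40, and that of Taf15 was 1.02 instead of 1.12.

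**Figure D3:**
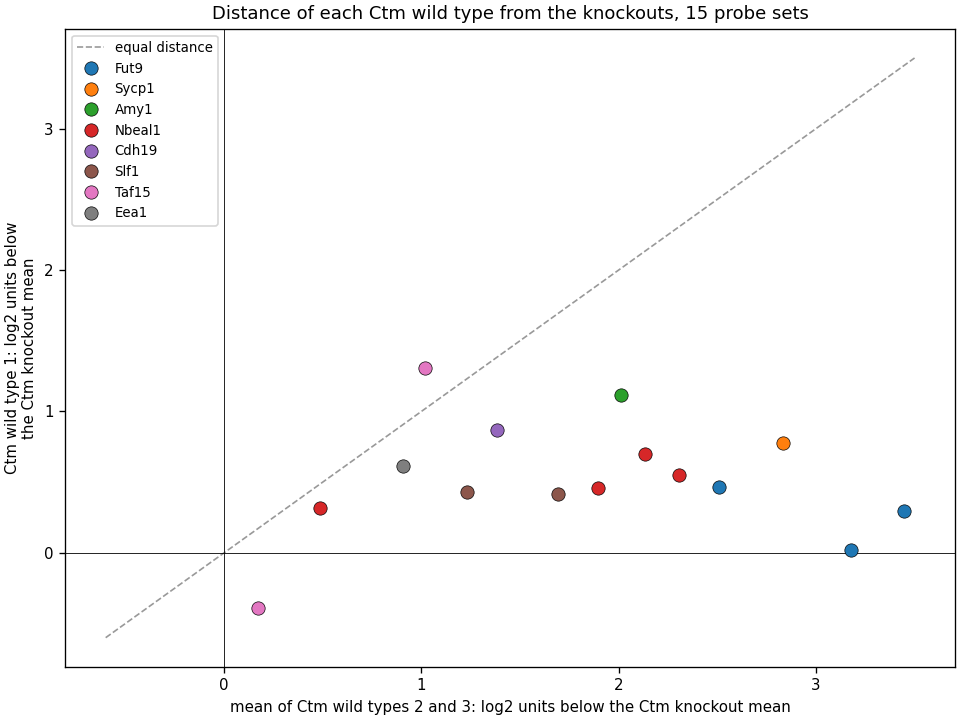
Log2 units below the mean of the 3 Ctm knockouts for the mean of Ctm wild types 2 and 3 (horizontal) and for Ctm wild type 1 (vertical), 1 point per probe set; the dashed line marks equal distances. Fut9 1435308_at lies at 3.44 and 0.30, far below the line, and Taf15 1438130_at at 1.02 and 1.31, above it.

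Of the lists of other RNAs, 2 had no overlap between the Ctm groups. The mean of 8 long RNAs that stay in the nucleus was 7.22, 7.26 and 7.10 in Ctm knockouts and 6.78, 6.97 and 6.18 in Ctm wild types, against 7.02 to 7.39 on the other 12 arrays. By exact permutation, two-sided, p was 0.10, below which 3 against 3 arrays cannot go, and 0.40 after adjustment over 12 array measures. Wild type 2 was the highest wild type in this list, unlike in most probe sets of the 8 genes. The male germ cell markers and the poly-A spikes given above had the same p and adjusted p, with the knockouts lower in both. Meg3 was higher in Ctm knockouts than in Ctm wild types by 0.94 (adjusted p = 0.0308, limma). Its means were 9.27 in knockouts, 8.33 in wild types and 9.47 on the other 12 arrays. It was the 1 of the 8 long RNAs that passed, where 0.858% of all probe sets were called higher in knockouts. Choroid plexus markers varied widely, with means of 2.84 to 6.14 in knockouts, 3.40 to 6.43 in wild types and 2.64 to 6.66 on the other 12. The part of these RNAs in the values of the 8 genes was not tested.

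**Figure D4:**
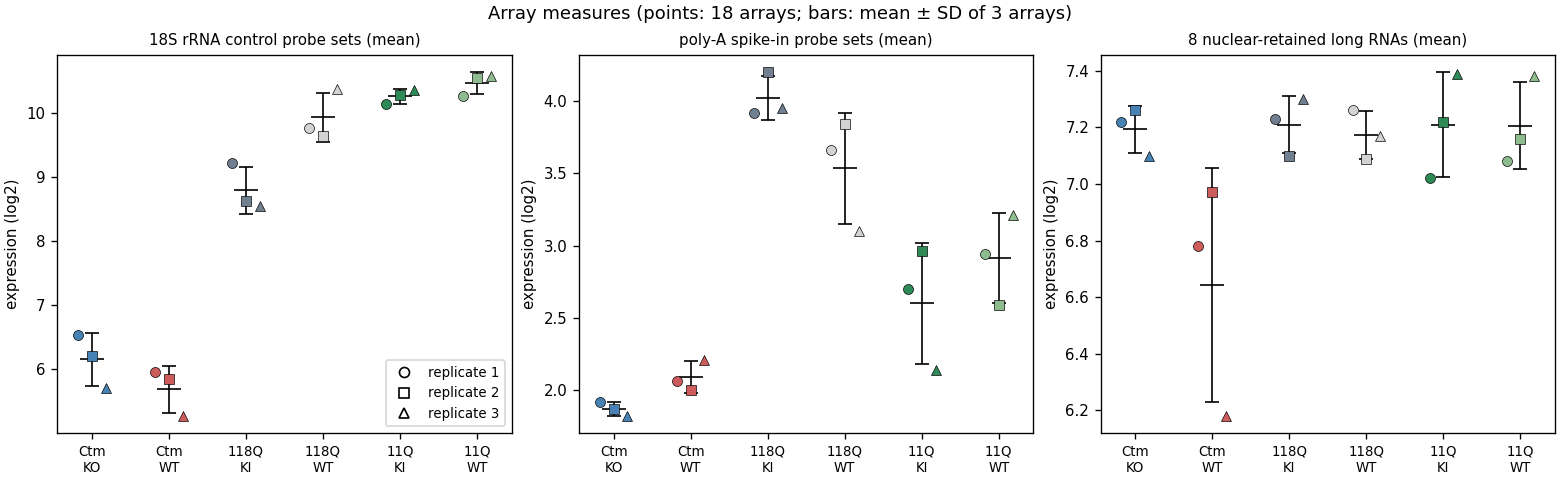
Array measures that do not use the 8 genes, 1 point per array and 1 panel per measure, by group. The 18S controls lie at 5.27 to 6.54 on the 6 Ctm arrays and at 8.54 to 10.57 on the other 12, and the mean of the nuclear-retained RNAs is lowest, at 6.18, in Ctm wild type 3.

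The knock-in lines ask whether the same genes respond to a long (118Q) or a short (11Q) glutamine tract. In 118Q knock-in mice compared with their wild types, 0 of the 15 probe sets passed limma's moderated test at an adjusted p of 0.05, where 0.0515% of all probe sets passed. At an unadjusted p below 0.05 the count was 5 of 15, against 12.3% of all probe sets. The changes ran from -0.47 to 0.66, with 8 positive and 7 negative and a median of 0.09, beside 0.03 over all probe sets. In 11Q knock-in mice compared with their wild types, 0 of 15 passed and 0% of all did. At an unadjusted p below 0.05 there were 2 of 15, against 4.09%. The changes ran from -0.72 to 0.18, with 3 positive and 12 negative and a median of -0.11, beside -0.01 over all.

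Fut9 1450771_at had the smallest p in the 118Q line. It read 4.58, 4.32 and 4.47 in 118Q knock-in mice and 3.88, 4.07 and 3.46 in their wild types. The knock-in arrays were all higher, as for 10.4% of all probe sets in this line, and the difference was 0.66 (SE 0.15, limma adjusted p = 0.108). The brightest Fut9 probe set differed by only 0.10 (95% interval -0.20 to 0.41, adjusted p = 0.832). In 11Q mice these 2 probe sets differed by 0.01 and -0.12.

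Slf1 1423577_at had the smallest p in the 11Q line, and opposite signs in the 2 lines. It read 4.68, 4.23 and 4.67 in 118Q knock-in mice and 4.03, 4.07 and 4.21 in their wild types, a difference of 0.43 (SE 0.18, limma adjusted p = 0.35). It read 3.83, 3.57 and 3.10 in 11Q knock-in mice and 4.21, 4.32 and 3.97 in their wild types, a difference of -0.67 (SE 0.18, limma adjusted p = 0.961). The knock-in arrays were all above their wild types in the first line and all below them in the second, where 5.61% of all probe sets had no overlap in that direction. The difference between the lines was 1.09 (SE 0.25, unadjusted p = 0.000764), and its limma adjusted p of 0.461 missed the threshold. The other Slf1 probe set, 1430047_at, had changes of 0.55 in 118Q and -0.72 in 11Q, with a difference between the lines of 1.26 (95% interval 0.13 to 2.40, adjusted p = 0.621).

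None of the 15 probe sets passed limma's test of the difference between the lines (0% of all passed; 3 of 15 at an unadjusted p below 0.05, against 7.66% of all). Cdh19 differed by -0.52 in 11Q mice (95% interval -0.96 to -0.08, limma adjusted p = 0.961) and by 0.09 in 118Q mice. Amy1 had 0.39 in 118Q mice (-0.02 to 0.80) and -0.15 in 11Q mice (-0.57 to 0.26). Sycp1 had 0.15 in 118Q mice (-0.15 to 0.46) and -0.08 in 11Q mice (-0.38 to 0.23). The intervals of Amy1 and Sycp1 include changes in either direction.

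The brightest probe sets of Nbeal1, Taf15 and Eea1 had negative differences in both lines. Nbeal1 1453174_at had -0.31 in 118Q mice and -0.11 in 11Q mice, Taf15 1438130_at had -0.27 and -0.25 in the same order, and Eea1 had -0.23 and -0.04. The 95% intervals of Eea1 were -0.47 to 0.01 in 118Q and -0.28 to 0.19 in 11Q mice. No test set the changes in these lines against the Ctm differences, which were chosen for their size.

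**Figure D5:**
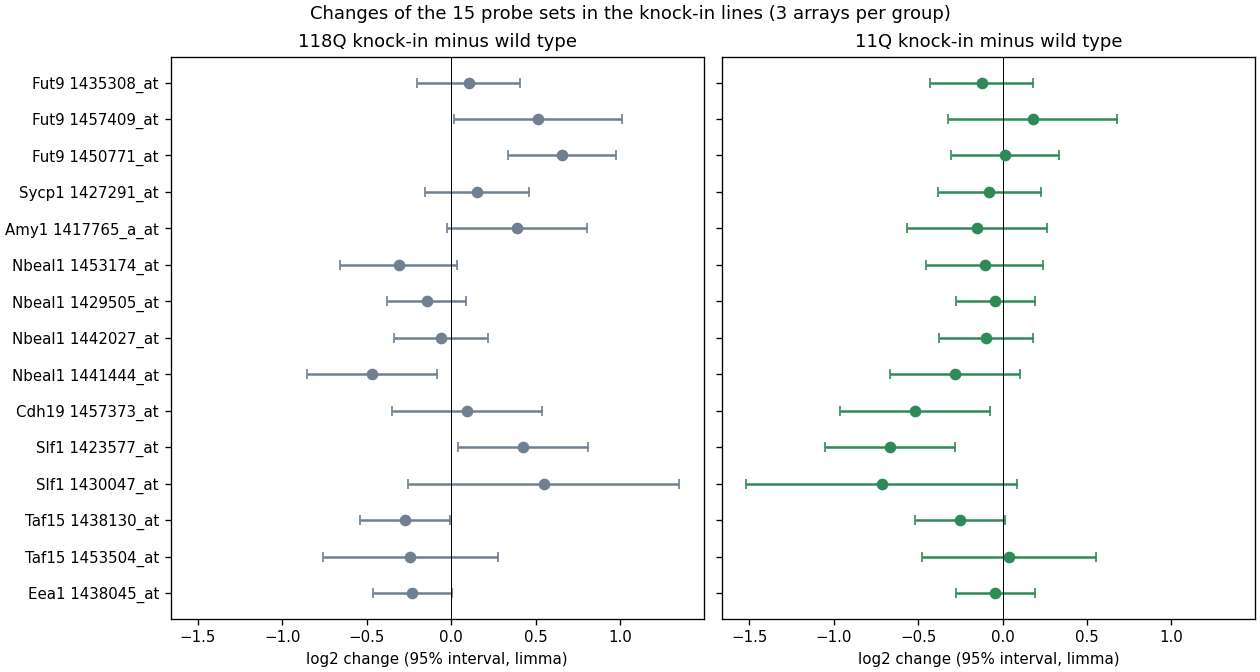
Log2 change, knock-in minus wild type, of each of the 15 probe sets in the 118Q and the 11Q line, with 95% intervals from the fit to 12 arrays. Slf1 1423577_at lies at 0.43 in 118Q and -0.67 in 11Q mice, and 0 of the 15 passed at an adjusted p of 0.05 in either line.

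The 118Q wild types were also compared with the 11Q wild types, as a measure of how far these genes differ between control groups. Of the 15 probe sets, 0 passed limma's adjusted test (0% of all), and 4 of 15 had an unadjusted p below 0.05, against 3.3% of all. Taf15 1438130_at had 4.71, 4.70 and 4.76 in 118Q wild types and 5.23, 5.19 and 5.52 in 11Q wild types, a difference of -0.58 (SE 0.12, unadjusted p = 0.000358, limma adjusted p = 1). All 3 118Q wild types were below all 3 11Q wild types for Taf15, as for 3.06% of all probe sets. The differences of the 15 probe sets ran from -0.58 to 0.33.

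Other genes of the same families were then examined. The 8 lists held 102 genes, of which 87 in 7 lists were measured by a probe set of their own; for the amylases it was 0 of 6. In the Ctm line, limma over all 18 arrays called 0 of the 87, where 0.858% of all probe sets were called higher in knockouts and 0.0572% lower; 14 of the 87 (16.1%) had an unadjusted p below 0.05, against 11% of all. In 118Q mice the 12-array fit called 0 of the 87 (0.0515% of all probe sets), and 9 of the 87 (10.3%) had an unadjusted p below 0.05, against 12.3% of all. In 11Q mice it called 0 (0% of all), and 3 of the 87 (3.4%) had an unadjusted p below 0.05, against 4.09%. No list had a called gene in any of the 3 lines. Each of the 87 genes was taken by its brightest probe set, whereas the shares of all cover every probe set, so the bases differ.

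Some relatives came near the threshold in the Ctm line. Cdh7, another type II cadherin, had 6.57, 6.69 and 6.40 in Ctm knockouts and 6.17, 5.64 and 5.12 in Ctm wild types, a difference of 0.91 (SE 0.23, limma adjusted p = 0.0731). The list of 10 measured type II cadherins had a median of -0.01, against -0.06 over all genes. Without Ctm wild type 1 the limma difference of Cdh7 was 1.17 (adjusted p = 0.00503), and Zfyve16 (1.10) of the endosome list and Smc6 (0.87) of the SMC5/6 list were then called too. The share of all probe sets called in that fit was not counted, so these calls cannot show a trait particular to the lists.
Smc5, a core subunit of the complex that SLF1 works with, had 5.09, 4.95 and 5.14 in knockouts and 4.58, 4.28 and 4.26 in wild types, a difference of 0.68 (SE 0.19, adjusted p = 0.119, limma). The 8 measured genes of this list had a median of 0.02. Sycp2, a protein of the chromosome axes in meiosis, had 0.75, 0.81 and 0.83 in knockouts and 0.39, 0.32 and 0.47 in wild types, a difference of 0.40 (SE 0.11, adjusted p = 0.0879, limma) at the bottom of the scale. In the other lists the gene with the smallest p was Fut2 (-0.22), a fucosyltransferase that makes the H antigen, Wdfy3 (0.28), a BEACH protein of selective autophagy, Taf8 (-0.37), a subunit of TFIID, and Vps45 (-0.34), which helps vesicles to fuse with endosomes.

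In the 118Q line the genes with the smallest p in each list were Slc35c1 (-0.53), the GDP-fucose transporter of the Golgi, Stag3 (0.30), a cohesin subunit of meiosis, Nbea (-0.62, adjusted p = 0.119, limma), Cdh5 (-0.49), the cadherin of blood vessel walls, Nsmce2 (0.28), a SUMO ligase of the SMC5/6 complex, Taf8 (0.34) and Pik3r4 (-0.51), a regulatory subunit of the kinase that makes the endosomal lipid PI3P. In the 11Q line they were Gmds (-0.44), an enzyme of GDP-fucose synthesis, Sycp2 (0.41), Nbeal2 (0.29), Cdh11 (-0.17), Rad18 (-0.14), Taf2 (-0.24) and Rab11a (-0.22), a GTPase of recycling endosomes. None of these passed.

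The genes whose pattern was most like the mean of the 8 brightest probe sets over the 18 arrays were Rock1, a protein kinase (Pearson r = 0.980), Rev3l, the catalytic subunit of DNA polymerase zeta (0.979), Phip (0.977), Zfp711 (0.973) and Dek, a chromatin protein (0.973). All 5 had higher means in Ctm knockouts than in Ctm wild types, by 0.85 for Dek to 1.57 for Zfp711. These arrays share the low Ctm wild types. Over the 12 arrays of the knock-in lines the r of the same 5 genes was 0.89, 0.57, 0.46, 0.57 and 0.77 in the order named.

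Among themselves the 8 genes were correlated to different degrees outside the Ctm line. Over the 12 arrays of the knock-in lines the 28 pairs of their brightest probe sets had a median r of 0.21, from -0.66 to 0.78, and 19 were positive. The r of pairs of other genes is not given here for comparison. The single gene most like each there was Slc25a15 for Fut9 (r = 0.952), Nsfl1c for Sycp1 (0.977), Rab4a for Amy1 (0.881), Tank for Nbeal1 (0.959), Tnfaip6 for Cdh19 (0.920), Zfp1 for Slf1 (0.918), Prex2 for Taf15 (0.905) and Arid4b for Eea1 (0.925). These are descriptions over 12 arrays that include 4 groups, and each was the highest of all genes.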

How the data were processed

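The table deposited for the 18 cerebellum arrays gives 1 log2 value per probe set and array, made by the authors with RMA per the submitters' processing notes; the version is not given in the sources used here. The highest value was 12.16 and the lowest -0.26, and the zero point of the scale is unknown. Of 45101 probe sets, 64 were controls, 932 had several symbols in the platform annotation and 9160 had none; the other 34945 were tested, 34741 of them matched to RefSeq. The brightest probe set of a gene is the one with the highest mean over the 18 arrays.

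The knock-in lines were fitted with limma 3.58.1 in R 4.3.3 on their 12 arrays (lmFit with 1 mean per group and eBayes, 8 residual and 5.54 prior degrees of freedom), and the family lists in the same fit for these lines and on all 18 arrays for the Ctm line. P-values were adjusted by Benjamini-Hochberg over all probe sets, with a threshold of 0.05, and the 12-array fit was checked on simulated data with known changes. It recovered 12% of simulated 118Q changes of 0.5 log2 units, 78% of those of 1, 94% of those of 1.5 and 100% of those of 2. A probe set that did not pass may therefore still have changed by about 0.5. Array measures were compared by two-sided exact permutation tests. The number of arrays limits the precision.

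The members and lists were chosen with earlier results of these data known. The text names every probe set of the 8 genes, the gene with the smallest p of each family list in each line where none is called, and the genes with the highest Pearson r to the 8 genes (predicted loci, Riken and EST names left out). Zfyve16 and Smc6 lie outside this rule and were chosen after their values were seen. Alternatives were another set of arrays in the fit, a renewed quantile normalisation, centring, a filter on dim probe sets, trend and robust settings, 1 probe set per gene, an RNA quality covariate, a replicate block, and each array left out.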

Additional observations from a re-analysis of the deposited data

Results flagged for a closer look

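Slf1 (1423577_at) had differences of opposite sign in the 2 knock-in lines: all 3 118Q knock-in arrays lay above their wild types (0.43), and all 3 11Q knock-in arrays lay below theirs (-0.67). The difference between the 2 changes was 1.09 log2 units, and limma's test of that difference gave an adjusted p of 0.461. Among the 15 probe sets this was the 1 that split in this way. Of all probe sets, 10.4% had the 118Q knock-in arrays all above their wild types. For 5.61% the 11Q knock-in arrays were all below theirs. The share with both was not counted, so the 1 of 15 cannot be set against it.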

How the results depend on the processing

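None of the 15 probe sets passed limma's adjusted test in either knock-in line, in the difference between them or in the comparison of their wild types under any alternative run. The number of all probe sets called in 118Q mice was 18, and 195 with all 18 arrays in the fit, 0 with the 6 arrays of the line alone, 62 after renewed quantile normalisation, 40 without the dimmer 50%, 74 with trend and robust settings, 11 with 1 probe set per gene and 2 with the RNA quality covariate. Leaving out 1 array gave 0 to 465: 465 without knock-in 1, 42 without wild type 2, 7 and 1 without knock-ins 2 and 3, 0 and 4 without wild types 1 and 3, and 9 or 10 without any array of the 11Q line except wild type 3 (23). In 11Q mice it was 0, 4 with the 6 arrays alone, and 0 to 2 when 1 array was left out (1 without 11Q knock-in 1, 2 without 118Q wild type 1 or 2). The family lists had 0 genes called in the Ctm line, 1 (Cdh7) without the dimmer 50%, 1 (Cdh7) with the replicate block and 0 to 3 without 1 array (3 without Ctm wild type 1). The shares of all probe sets called in the Ctm line under these alternatives were not counted. With the replicate block 20 probe sets were called in 118Q and 0 in 11Q mice. Deviations of arrays with the same number correlated between -0.12 and 0.22. The labels state no pairing by number, and these correlations cannot exclude one. Some small changes turned sign when 1 array was left out: in 11Q mice Eea1 (-0.096 to 0.012), Sycp1 (-0.162 to 0.068), Nbeal1 (-0.258 to 0.022) and Amy1 (-0.238 to 0.015), and in 118Q mice Fut9 (-0.003 to 0.240) and Cdh19 (-0.037 to 0.246; -0.013 without 118Q knock-in 1). Others kept their sign but moved by over 1.5 times: in 118Q mice Amy1 (0.39; 0.245 without knock-in 1, 0.596 with the RNA quality covariate) and Nbeal1 (-0.31; -0.201 without knock-in 2), and in 11Q mice Cdh19 (-0.52; -0.337 without wild type 3, -0.345 without knock-in 3), Taf15 (-0.25; -0.149 without wild type 3) and Fut9 (-0.12; -0.051 to -0.187), and in 118Q mice Sycp1 (0.15; 0.058 without wild type 1, 0.076 with the RNA quality covariate). The cause was not tested. The median Ctm difference of the 8 genes was 1.31 to 1.85 without 1 array. With 3 arrays a group and no detection call, which dim probe sets are above background is unknown.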

Other observations

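The 8 genes differ in length. From the first to the last annotated base in RefSeq (assembly GRCm38.p6) Fut9 spans 191 kb, Nbeal1 160 kb, Sycp1 118 kb, Eea1 105 kb, Slf1 92.4 kb, Cdh19 89.6 kb, Taf15 33.7 kb and Amy1 21.8 kb. Their median is 98.6 kb, beside 20.3 kb over 18029 genes, and all 8 lie above that median, Amy1 only just. The 71 genes with no overlap in the Ctm line and knockouts higher by at least 1 log2 unit had a median span of 35.5 kb (69 of them with a span). By its brightest probe set, each of the 8 genes except Eea1 (a difference of 0.81) meets this criterion. The 71 are therefore not an outside group. The part of gene length in these values was not tested.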
